A study of Saccharomyces cerevisiae and Saccharomyces kudriavzevii and Saccharomyces uvarum with 18 samples.

Results

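The transcriptome of S. uvarum was compared with that of the wine yeast S. cerevisiae Lalvin T73 in fermentations of Tempranillo must at 12°C. The comparison rested on 3 two-colour arrays, lettered A, B and C, of the 18 arrays of the series, and they were chosen by their titles, which name S. uvarum CECT 12600 (S. bayanus var. uvarum in the study) and a fermentation at 12°C. Each array held cDNA of S. uvarum in the Cy3 channel and of T73, grown at the same temperature, in the Cy5 channel, and cells of both were collected at the beginning of stationary phase. The titles gave 1 collection number, whereas the strain field gave CECT 12600 for array A, CECT 12601 for array B and CECT 12602 for array C, and the titles were followed. The other groups, of 3 arrays each, were the commercial wine yeast S. cerevisiae Fermol cryophile at 12°C and 28°C, S. kudriavzevii IFO 1802 at 12°C and 28°C, and the same S. uvarum strain at 28°C, all against T73. Of the 6172 genes in the table, 6160 had at least 2 values in S. uvarum at 12°C and were tested. All values below are log2 of the ratio of S. uvarum to T73, so that 1 is a 2-fold higher and -1 a 2-fold lower signal in S. uvarum.

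S. uvarum is a cold-tolerant relative of S. cerevisiae that ferments wine and cider at low temperature and is known for wines rich in higher alcohols and their acetate esters. Its genome has the same general gene order as that of S. cerevisiae, but the repeated gene families near the chromosome ends differ widely between species and between strains. The spots of the array were PCR products of S. cerevisiae S288c genes, so a low ratio can come from less transcript, from a sequence that binds the spot less well, or from a gene that S. uvarum holds in fewer copies, and these cannot be told apart here. From DNA put on such arrays, the study reports that most genes of this strain hybridized. Among the aroma genes, MUP3 was the only exception it names for this species. Those DNA data were not used here.

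The 3 arrays differed in quality. Array B had the widest spread, with an SD over all genes of 1.71, against 1.15 on array A and 1.12 on array C, and the fewest values (5960, against 6156 and 6134). Pearson's r over all genes was 0.28 between A and B, 0.43 between A and C, and 0.39 between B and C. Array A was closer to array B of Fermol cryophile at 12°C (r = 0.79) than to either array of its own group. Its r with array C of S. uvarum at 28°C was -0.33. The labels state the dyes of every array, and the same direction was kept for all. The Arabidopsis control spot, which has no partner in yeast RNA, read 1.61, 1.37 and 1.75 on arrays A, B and C, and the buffer spot read 1.24, -2.15 and 2.03. Whether such a shift is part of the ratios of dim genes was not tested.

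limma called 394 genes (6.4% of 6160) at an adjusted p below 0.05, 150 higher in S. uvarum than in T73 (2.44% of the genes tested) and 244 lower (3.96%). Of the 394 genes, 390 had 3 values of one sign. The median of all gene means was 0.04. The rule of a median at least 2-fold from T73, which carries no test, was met by 820 genes in the higher direction (13.3%) and 894 in the lower (14.5%), and 387 of these 1714 genes were also called. A scaling of the arrays to one spread gave 308 higher and 305 lower calls, and quantile normalization 287 and 268, so the excess of lower genes did not hold under either, nor without array C (24 higher, 12 lower). The calls leaned on single arrays. Of the 394 genes, 242 stayed called without array A, 14 without array B and 36 without array C.

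Calls that held under the loss of each array in turn were found for 8 genes, 1 of them higher and 7 lower. EAF6, a subunit of the NuA4 and NuA3 histone acetyltransferases, was the higher one, at 1.66, 2.71 and 3.72 on arrays A, B and C (mean 2.70, SE 0.37, adjusted p = 0.00334). Among the lower genes were COS6 and COS8, described below with their family. CGR1, which acts in the processing of the large ribosomal subunit, read -1.83, -2.33 and -2.36 on arrays A, B and C (mean -2.17, SE 0.32, adjusted p = 0.00416). NRK1, the nicotinamide riboside kinase of NAD+ salvage, read -1.94, -2.86 and -3.39 on arrays A, B and C (mean -2.73, SE 0.42, adjusted p = 0.00416). SPS22, which takes part in building the spore wall, read -1.66, -2.001 and -2.91 on arrays A, B and C (mean -2.19, SE 0.33, adjusted p = 0.00416). YJL193W and YNR068C, which carry no gene symbol, averaged -2.56 (SE 0.35, adjusted p = 0.00334) and -2.31 (SE 0.31, adjusted p = 0.00334). On all 3 arrays these 8 genes lay more than 1.6 from 0.

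The 12 lowest of the called genes had means between -2.95 and -2.62, or 7.74-fold to 6.15-fold below T73, and 4 of them belonged to the COS family. RFC2, a subunit of the clamp loader of DNA replication, was at -1.63, -2.62 and -4.57 on arrays A, B and C (mean -2.94, SE 0.68, adjusted p = 0.0206). PHO8, the repressible alkaline phosphatase of the vacuole, was at -1.55, -3.53 and -2.98 on arrays A, B and C (mean -2.69, SE 0.46, adjusted p = 0.00695). SPG3, a gene of survival in stationary phase, averaged -2.75 and YRO2, a membrane protein related to Hsp30, averaged -2.65. RRT13 (-2.63) and HUR1 (-2.62) have no well described role. All of these genes were low on each array, with array A nearest to 0 in all 12. All 12 calls held without array A, 3 held without array B and 4 without array C.

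The 12 highest of the called genes had means between 3.02 and 3.69, or 8.08-fold to 12.9-fold above T73. CLN3, the cyclin that starts the cell cycle in G1, was at 3.35, 5.94 and 1.79 on arrays A, B and C (mean 3.69, SE 0.83, adjusted p = 0.0193). MED7, a subunit of Mediator, was at 4.27, 6.14 and 0.44 on arrays A, B and C (mean 3.62, SE 1.01, adjusted p = 0.0442), so that its height came from arrays A and B. PTI1, of mRNA 3′ end processing, averaged 3.50, and ACP1, the acyl carrier protein of mitochondria, averaged 3.41. SDS24, which acts in cell separation, averaged 3.16, AIM20 3.14 and CDC26, a subunit of the anaphase-promoting complex, 3.02. In 11 of the 12 genes array B was the highest, RPL41A being the exception. Without array B no call among the 12 held, while 8 held without array A and 7 without array C.

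**Figure D1:**
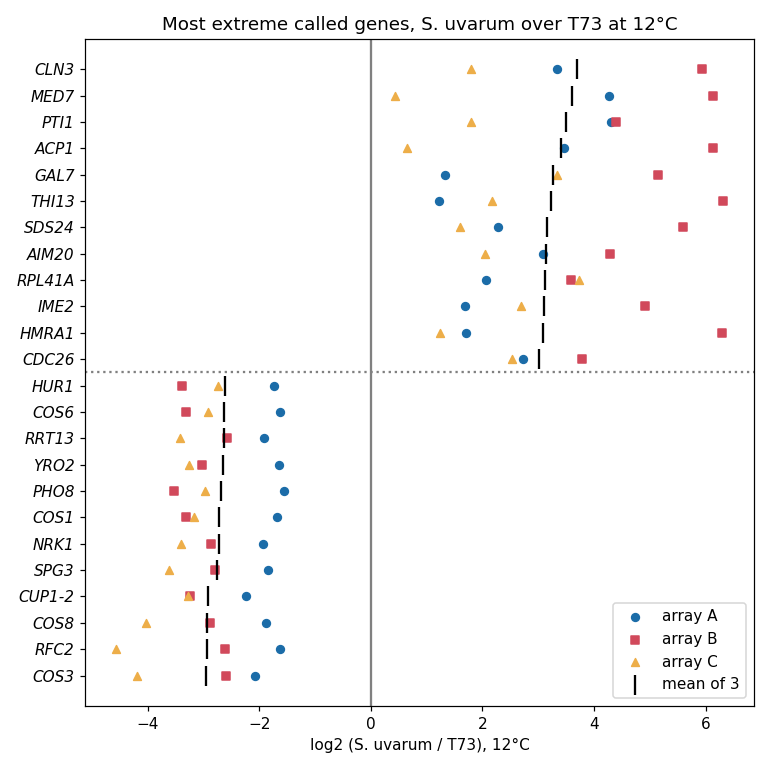
Log2 ratio of S. uvarum to T73 at 12°C (x axis) on arrays A, B and C, with the mean of the 3 as a bar, for the 12 highest and 12 lowest named genes among those called. The higher genes spread widely, with array B mostly farthest out (CLN3 at 5.94 on array B and 1.79 on array C), whereas the lower genes lie in a narrower range.

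Of 22 genes in 3 repeated families of the chromosome ends (COS, Y′ helicase and HSP31), 15 were called lower (68.2%, against 3.96% of all genes tested) and none higher. The families were put together after their values were seen, so they are described without a list test. The COS genes encode membrane proteins that help to sort other membrane proteins to the vacuole. Of 11 COS genes on the array, 8 were called lower (72.7%, against 3.96% of all genes tested) and none higher, and their median was -2.53. COS8 read -1.88, -2.87 and -4.03 on arrays A, B and C (mean -2.93, SE 0.44, adjusted p = 0.00416), and COS6 read -1.63, -3.32 and -2.91 on arrays A, B and C (mean -2.62, SE 0.37, adjusted p = 0.00334). COS3, the lowest by its mean, read -2.07, -2.60 and -4.19 on arrays A, B and C (mean -2.95, SE 0.69, adjusted p = 0.0212). COS1, COS4, COS5, COS7 and COS9 averaged -2.72, -2.53, -2.60, -2.40 and -2.49. The 3 members that were not called were COS2 at 0.41, COS10 at -0.15 and COS12 at -0.93, so the family did not read alike.

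The helicases encoded in the Y′ elements of the telomeres, YRF1-1 to YRF1-7, have nearly identical sequences and would be expected to share signal on such an array. Nevertheless 4 of 7 were called lower, with YRF1-7 at -2.41, YRF1-3 at -2.17, YRF1-6 at -2.13 and YRF1-4 at -2.11, while YRF1-1 was at 1.08, YRF1-2 at -0.10 and YRF1-5 at 0.29 without a call. In the HSP31 family, whose members are chaperones and glyoxalases, 3 of 4 genes were called lower. HSP33 read -1.77, -3.62 and -2.34 on arrays A, B and C (mean -2.58, SE 0.40, adjusted p = 0.00491), SNO4 averaged -2.26 and HSP32 -1.92, and HSP31 itself, the most divergent member, was at -1.16 without a call (adjusted p = 0.292). Of the 15 calls in these 3 families, 13 held without array A, 3 without array B and 3 without array C, and that of YRF1-7 was lost with each array centred within chromosome arms.

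The same families in the other strains, which were set against the same T73, were also below 0. The median of the COS genes was -2.53 in S. uvarum at 12°C, -2.21 in S. kudriavzevii at 12°C, -0.60 in Fermol cryophile at 12°C and -1.61 in S. uvarum at 28°C. For the Y′ helicases the medians were -2.11 in S. uvarum at 12°C, -0.92 in S. kudriavzevii, -1.10 in Fermol cryophile and -1.70 in S. uvarum at 28°C. None of the COS or YRF1 genes was called between S. uvarum at 12°C and any of these groups in limma; for COS8 the difference from Fermol cryophile was -1.90 (SE 0.63, adjusted p = 0.597).

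**Figure D2:**
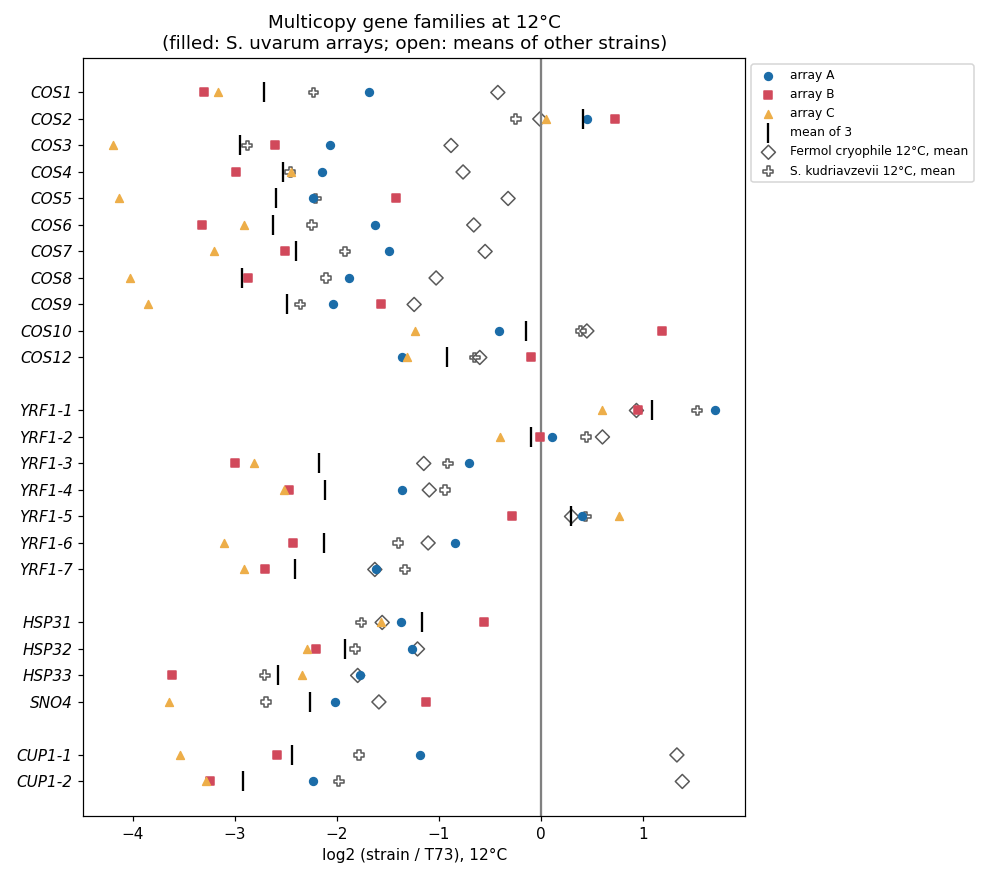
Log2 ratio to T73 at 12°C (x axis) of the COS, Y′ helicase, HSP31 and CUP1 genes, with S. uvarum arrays A, B and C as filled points and their mean as a bar, and with the means of Fermol cryophile and S. kudriavzevii as open symbols. The 8 called COS genes lie between -4.19 and -1.43 in S. uvarum, and the CUP1 genes are below 0 in S. uvarum and above 0 in Fermol cryophile.

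Genes were also counted by their place on the chromosome. Among the 145 genes that are one of the outermost 5 of a chromosome arm in the S. cerevisiae order, 25 were called lower (17.2%) and 8 higher (5.52%), against 185 lower (3.65%) and 112 higher (2.21%) of the 5067 genes that lie at least 20 genes inside. Of the 25 lower calls, 14 came from the 20 outermost genes that belong to the 3 families above, and the other 125 outermost genes had 11 lower (8.8%) and 8 higher (6.4%) calls. The genes in places 6 to 10 had 8 lower calls of 151 (5.30%). The median of the outermost genes was -0.21, and that of the inner genes 0.02, so that most of the outermost genes were not low. Positions were counted in genes, since the repeats of these families make distances uncertain.

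CUP1-1 and CUP1-2 encode the copper metallothionein that protects yeast from copper, in a tandem repeat of near-identical copies that share signal on the array. CUP1-2 read -2.24, -3.24 and -3.28 on arrays A, B and C (mean -2.92, SE 0.47, adjusted p = 0.00535), and CUP1-1 read -1.19, -2.59 and -3.54 on arrays A, B and C (mean -2.44, SE 0.51, adjusted p = 0.0138). These were 2 of 13 genes of copper binding and transport (15.4%, against 3.96% of all genes tested called lower), and the other 11 had no call. CUP1-2 was the only gene of 6159 tested (0.0162%) that limma called between S. uvarum and Fermol cryophile at 12°C. In Fermol cryophile it read 1.61, 1.63 and 0.91, above T73 on each array, and the difference was -4.30 (SE 0.67, adjusted p = 0.0389). CUP1-1 differed by -3.77 (SE 0.72, adjusted p = 0.224). The call of CUP1-2 held without array A (adjusted p = 0.0374), but not without array B (0.338) or array C (0.371). In all, 499 genes had an unadjusted p below 0.05 in this contrast. In S. kudriavzevii at 12°C CUP1-2 averaged -1.98 and in S. uvarum at 28°C -2.74, both below T73. Against T73, both CUP1 calls held without array A, neither without array B, and that of CUP1-2 without array C.

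Of 17 genes of galactose, maltose, isomaltose and sucrose use, 5 were called higher (29.4%, against 2.44% of all genes tested) and 1 lower (5.88%, against 3.96%), and their median was -0.09. The galactose genes GAL1, GAL7 and GAL10, which lie side by side and encode the enzymes that turn galactose into glucose 1-phosphate, were all called. GAL7 read 1.33, 5.15 and 3.33 on arrays A, B and C (mean 3.27, SE 0.58, adjusted p = 0.00914), GAL10 read 1.81, 1.84 and 4.07 on arrays A, B and C (mean 2.57, SE 0.45, adjusted p = 0.00734), and GAL1 read 1.45, 1.26 and 2.37 on arrays A, B and C (mean 1.69, SE 0.48, adjusted p = 0.0447). The values of these genes were above 1 on every array. GAL3, their inducer, averaged 1.99 and just missed the threshold (adjusted p = 0.0512), and the permease GAL2 (-0.09), the activator GAL4 (-0.19) and the repressor GAL80 (-0.95) were not called.

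Among the maltose genes, the maltase MAL32 read 2.07, 2.50 and 1.99 on arrays A, B and C (mean 2.19, SE 0.44, adjusted p = 0.0111), and its near-identical copy MAL12 averaged 1.57 without a call. IMA2, an isomaltase, read 1.90, 2.12 and 1.46 on arrays A, B and C (mean 1.83, SE 0.43, adjusted p = 0.0212). The maltose permeases MAL11 and MAL31 were at -0.10 and -0.91. SUC2, the invertase that splits sucrose outside the cell, was the lower one, at -0.63, -2.02 and -1.64 on arrays A, B and C (mean -1.43, SE 0.34, adjusted p = 0.0234). GAL10 and IMA2 were also higher at 12°C than at 28°C within S. uvarum, by 2.52 (SE 0.63, adjusted p = 0.043) and 2.76 (SE 0.60, adjusted p = 0.0309). Of the 6 calls, 4 held without array A, 1 without array B and none without array C, and the call of GAL1 was lost when each array was centred within chromosome arms, an alternative chosen after seeing the data (adjusted p = 0.0849). The GAL cluster and MAL32 lie on chromosome II, whose genes had a median of 0.36.

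Aroma genes were the subject of the study. In yeast, higher alcohols arise from amino acids by the Ehrlich pathway (transamination, decarboxylation and reduction), and acetyltransferases turn them into acetate esters. Of 65 genes in 7 lists of this metabolism, 6 were called higher and 2 lower, beside the 2.44% and 3.96% of all genes tested. ARO10, the main decarboxylase of the pathway, read 1.57, 3.29 and 2.05 on arrays A, B and C (mean 2.30, SE 0.45, adjusted p = 0.0111). ATF2, an alcohol acetyltransferase, read 1.28, 2.29 and 1.81 on arrays A, B and C (mean 1.79, SE 0.43, adjusted p = 0.023), and EEB1, an ethyl ester synthase, read -1.73, -3.26 and -1.71 on arrays A, B and C (mean -2.23, SE 0.56, adjusted p = 0.0284). The 2 ester genes thus went in opposite directions.

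Of 8 alcohol dehydrogenases, 1 was called higher (12.5%, against 2.44% of all genes tested) and 1 lower (12.5%, against 3.96%). Most of the list was low, with 6 of 8 means below 0 and a median of -1.11. ADH6, an NADPH-dependent enzyme that reduces long and branched aldehydes, read 0.36, 5.77 and 2.78 on arrays A, B and C (mean 2.97, SE 0.70, adjusted p = 0.023), with array A close to 0. ADH4 read -1.51, -2.45 and -1.90 on arrays A, B and C (mean -1.95, SE 0.52, adjusted p = 0.0365). ADH1 (-1.01), ADH2 (-1.20), ADH3 (-1.26) and ADH5 (-1.84) were below 0 on all 3 arrays and were not called (adjusted p from 0.111 to 0.513). TIP1, a cell wall mannoprotein with an esterase activity in its annotation, averaged 1.72 (SE 0.46, adjusted p = 0.0364). EGH1, a glucosidase that acts on steryl glucosides, averaged 1.62 (SE 0.34, adjusted p = 0.0138), and ARO1, the large enzyme of aromatic amino acid synthesis, 1.38 (SE 0.39, adjusted p = 0.0472).

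Some aroma genes reached the 2-fold rule or lay near it but did not pass the test. PDC2, an activator of pyruvate decarboxylase genes, averaged 1.36 and BAP3, a permease of branched-chain amino acids, 1.02. BAP2, another such permease, averaged -1.08, GAP1, the general amino acid permease, -1.35, ARO9, an aromatic transaminase, -0.87, ILV2 of branched-chain synthesis -1.41, and the glucanases BGL2 and EXG1 -0.83 and -0.93. ALD4, the mitochondrial aldehyde dehydrogenase, was at -0.88, 2.22 and 1.42 on arrays A, B and C, so that its arrays had opposite signs, and ALD5, another mitochondrial aldehyde dehydrogenase, averaged 0.98. Their adjusted p-values lay between 0.0767 and 0.438. Of the 8 aroma calls, 5 held without array A and none without array B or without array C. The calls of ADH4, TIP1 and ARO1 were lost with each array centred within chromosome arms.

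Of 20 permeases of amino acids and ammonium, 4 were called lower (20%, against 3.96% of all genes tested) and none higher, with a median of -0.17. MUP3, which the study reports as not hybridizing in this species, is in this list and was not called. PUT4, the proline permease, read -1.61, -3.18 and -2.60 on arrays A, B and C (mean -2.46, SE 0.40, adjusted p = 0.00535). MEP2, the high-affinity ammonium transporter, read -1.22, -2.70 and -2.12 on arrays A, B and C (mean -2.01, SE 0.58, adjusted p = 0.0478), and CAN1 and LYP1, for arginine and lysine, averaged -1.42 and -1.33. Proline is the main amino acid of grape must, and its catabolism needs oxygen. PUT2, which forms glutamate from proline, averaged -1.73 (SE 0.40, adjusted p = 0.0203), and PUT1, which opens the pathway, read -0.98, -2.20 and -2.95 on arrays A, B and C without a call (adjusted p = 0.101). PUT7 was called at a mean of -6.55, which came from a single value of -16.74 on array C beside -0.95 and -1.98 on the others, and without values below -10 it was not called. PRO1, which starts proline synthesis, went the other way at 1.58 (adjusted p = 0.0436). DUR3, the urea permease, was the 1 called gene of 14 of allantoin and urea use (7.14%, against 2.44% of all genes tested called higher). It was at 1.02, 3.36 and 2.30 on arrays A, B and C (mean 2.23, SE 0.51, adjusted p = 0.0205).

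In the lists of arginine, histidine and lysine, with 12, 7 and 9 genes, 5 genes were called lower. The shares were 16.7%, 28.6% and 11.1%, against 3.96% of all genes tested. ARG8 and CPA1 of arginine synthesis averaged -1.47 and -2.15, HIS5 and HIS6 of histidine synthesis -1.57 and -1.50, and LYS14, the activator of the lysine genes, -1.33. No gene of these 3 pathways was called higher, against 2.44% of all genes tested. HIS5 and HIS6 lie on chromosome IX, where 9.09% of genes were called lower. Against S. uvarum at 28°C, HIS6 differed by -3.40 (SE 0.61, adjusted p = 0.0241). Of the 13 calls in nitrogen and basic amino acid genes, 7 held without array A, none without array B and 1 without array C. The calls of MEP2, LYP1, HIS5, HIS6 and CPA1 were lost with each array centred within chromosome arms.

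In autophagy, the transport of cell material to the vacuole, 5 of 36 genes were called lower (13.9%, against 3.96% of all genes tested) and none higher, and the median of the 36 was 0.00. After centring, scaling, quantile normalization or centring within chromosome arms, 1 gene of the list was called higher in each case. ATG19, the receptor that brings aminopeptidase to the vacuole, read -1.10, -2.77 and -3.20 on arrays A, B and C (mean -2.36, SE 0.38, adjusted p = 0.00535). ATG39 and ATG32, the receptors for the autophagy of the nucleus and of mitochondria, averaged -2.21 (adjusted p = 0.00799) and -1.85 (adjusted p = 0.0145). ATG38 averaged -1.74, and ATG1, the kinase that starts the process, read -1.47, -2.36 and -1.18 on arrays A, B and C (mean -1.67, SE 0.45, adjusted p = 0.0381). Of 33 genes of peroxisomes and fatty acid oxidation, 4 were lower (12.1%), among them POX1, the first enzyme of beta-oxidation (-1.31), the peroxisomal catalase CTA1 (-1.76) and PEX17 of protein import (-1.47). The citrate cycle had 3 lower calls of 23 (13.0%), MDH1 at -2.23, IDH1 at -1.83 and FUM1 at -1.74. Beside PHO8, PHO12, an acid phosphatase with close copies, was lower at -2.11. Of the 14 calls, 11 held without array A and none without array B or without array C, and ATG1, POX1 and PEX17 were lost with each array centred within chromosome arms.

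Of 16 cyclins and regulators of the G1 to S step, 4 were called higher (25%, against 2.44% of all genes tested) and none lower, with a median of 1.17 against 0.04 over all genes. By array the median was 0.59, 1.59 and 0.45 on arrays A, B and C. The same list had a median of 1.17 in S. kudriavzevii and 0.51 in Fermol cryophile at 12°C, so its height was not particular to S. uvarum. Beside CLN3, WHI5, the repressor of G1 transcription that CLN3 acts on, read 2.33, 3.63 and 1.86 on arrays A, B and C (mean 2.60, SE 0.60, adjusted p = 0.0205). CLB2, the main mitotic cyclin, averaged 1.48 (adjusted p = 0.0447), and FAR1, an inhibitor of CLN kinases, 1.26 (adjusted p = 0.0469). The other cyclins differed between arrays and among themselves: CLN2 read -2.08, -1.67 and 1.74 on arrays A, B and C, CLN1 3.44, 0.27 and -0.15 and CLB1 -1.01, -0.52 and -0.81. CLN3 is on chromosome I, where the median of array A was 0.88, and its call held after centring within chromosome arms (adjusted p = 0.0208), in which CLB2 was lost (0.0656).

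Of 31 genes of DNA replication licensing and the replication fork, 2 were called higher (6.45%, against 2.44% of all genes tested) and 1 lower (3.23%, near the 3.96% of all genes). POL30, the sliding clamp, averaged 2.23 and ORC2 of the origin recognition complex 2.21, both higher. RNR2, a ribonucleotide reductase subunit, averaged -1.41, lower. The list does not include RFC2 of the clamp loader, which was called lower as given above. IME2, the kinase of meiosis, read 1.69, 4.91 and 2.70 on arrays A, B and C (mean 3.10, SE 0.54, adjusted p = 0.00799), whereas SPS22, given above, was lower. Of 26 genes of mating and pheromone response, FUS1 (1.70) and STE5 (1.91) were called higher (7.69%, against 2.44% of all genes tested). None was called lower, against 3.96% of all genes. The mating-type genes share sequence between MAT and the silent cassettes HML and HMR, so their spots cannot be told apart. All 6 spots were above 0 on each array with a value, with a median of 2.23, and HMRA1 (3.08), MATALPHA2 (2.50) and HMLALPHA2 (1.96) were called. They lie on chromosome III, whose genes had a median of 0.89 in S. uvarum at 12°C, and none of the 3 calls held after centring within chromosome arms, nor did that of FUS1 on the same chromosome (adjusted p = 0.294). The cassettes were put together after their values were seen. The lists of cell cycle, replication, mating and meiosis genes held 11 calls, the cassettes not counted. Of these, 6 held without array A, 1 without array B and 3 without array C.

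Of 135 cytosolic ribosomal protein genes, 4 were called higher (2.96%, near the 2.44% of all genes tested) and none lower, and their median was 0.53, at -0.19 on array A, 0.76 on array B and 0.66 on array C. RPL41A, which encodes the shortest protein of the ribosome, read 2.07, 3.58 and 3.73 on arrays A, B and C (mean 3.13, SE 0.55, adjusted p = 0.00836). RPL39 averaged 2.50, RPS31 2.25 and RPS25B 1.22. Ribosome biogenesis had 2 higher (2.41%) and 3 lower (3.61%) calls of 83, near the 2.44% and 3.96% of all genes tested. NOP1, the fibrillarin that methylates ribosomal RNA, read 3.24, 2.35 and 2.55 on arrays A, B and C (mean 2.72, SE 0.59, adjusted p = 0.0155), and RRP1 averaged 2.57, while RRP14, RRP40 and NSA1 averaged -1.50, -1.25 and -1.19. The translation initiation factors RPG1 (1.73) and TIF11 (1.78) were higher, 2 of 36 translation factors (5.56%), with none lower. The RNA polymerase I subunit RPA14 (2.03) was the 1 call, higher, among 20 genes of RNA polymerases I and III (5%). Of 63 mitochondrial ribosomal protein genes tested, MRP4 (2.20) and RSM7 (2.06) were higher (3.17%, against 2.44% of all genes tested). MRP49 (-2.35) was lower (1.59%, against 3.96%), and the median of that list was -0.07. Of these 15 calls 8 held without array A, none without array B and 1 without array C, and RSM7, NSA1 and RRP40 were lost with each array centred within chromosome arms.

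In thiamine synthesis 3 of 21 genes were called higher (14.3%, against 2.44% of all genes tested) and none lower, and the median of the list was -0.12, with 12 of 21 means below 0. THI4, which makes the thiazole part of the vitamin, read 1.53, 2.15 and 2.27 on arrays A, B and C (mean 1.98, SE 0.50, adjusted p = 0.0302). THI13, which makes the pyrimidine part, read 1.22, 6.32 and 2.17 on arrays A, B and C (mean 3.24, SE 0.65, adjusted p = 0.0118), and its near-identical copies THI5, THI11 and THI12 averaged 0.42, 2.12 and 1.30 without a call. SNZ2, of vitamin B6 synthesis, averaged 1.95. THI4 averaged -1.11 in Fermol cryophile and -0.55 in S. kudriavzevii at 12°C, and the differences of S. uvarum from them were 3.09 (SE 0.71, adjusted p = 0.402) and 2.54 (SE 0.71, adjusted p = 0.53).

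In lipid and wall genes, calls were scattered. ERG6, the sterol methyltransferase that sets ergosterol apart from cholesterol, read 2.14, 4.63 and 1.96 on arrays A, B and C (mean 2.91, SE 0.64, adjusted p = 0.0162), and ECM22, an activator of sterol genes, averaged 2.38. These were 2 of 31 sterol genes (6.45%, against 2.44% of all genes tested called higher). FAS2 of fatty acid synthesis averaged 1.54. The inositol transporter ITR1 and the choline phosphotransferase CPT1 were lower, at -1.73 and -1.47. DAN4, a mannoprotein of anaerobic cells, averaged 1.48. SAM1, which forms S-adenosylmethionine, averaged 2.55, STR3 of methionine synthesis -1.52, the iron permease FTR1 2.00 and the glutathione transferase GTT1 2.44. SAM1 owed its mean to array B, with 0.41, 6.04 and 1.20 on arrays A, B and C. The drug exporters AQR1 and TPO1 were lower, at -2.24 and -1.52. Of 35 heat shock and chaperone genes, HSP30 was called lower (-1.67) and the cyclophilin CPR1 higher (1.70). Each was 2.86% of the list, near the 3.96% and 2.44% of all genes tested. The median of this list was -0.67, with 27 of 35 means below 0. None of the calls in these genes or in thiamine synthesis held without array B, 1 held without array C, and 11 of 19 held without array A. STR3 was lost with each array centred within chromosome arms.

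Some function lists gave no call. In 16 of 55 lists, with 252 genes and medians between -0.68 and 0.39, no gene passed the test, beside 6.4% of all genes tested. These lists were grouped by their lack of a call, and at that share a list of few genes can hold none, so this is a description only. The lists without a call included glycolysis (17 genes, means from -1.02 to 0.49), the hexose transporters (19 genes, -1.09 to 0.44, several of which share sequence), the respiratory chain and ATP synthase (34 genes, -1.79 to 1.78), the proteasome (33 genes, -1.58 to 1.04) and the cold-induced seripauperins (23 genes, -0.72 to 0.62, which are close copies of each other). PGK1 was the lowest of glycolysis at -1.19, -1.69 and -0.19 on arrays A, B and C and HXT3 that of the transporters at -1.43, -0.76 and -1.08 on arrays A, B and C, both below 0 on each array, with adjusted p-values of 0.516 and 0.442. The SE of PGK1 was 0.91, against a median of 0.49 over genes, so that a difference of 2-fold was not detectable for PGK1. Most other genes were also limited, since 387 of the 1714 genes that met the 2-fold rule were called. The Ty element ORFs, at a median of -0.68, reached -2.03 in YAR009C (adjusted p = 0.125). Over all 55 lists, 45 of 1231 genes were called higher (3.66%) and 43 lower (3.49%).

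**Figure D3:**
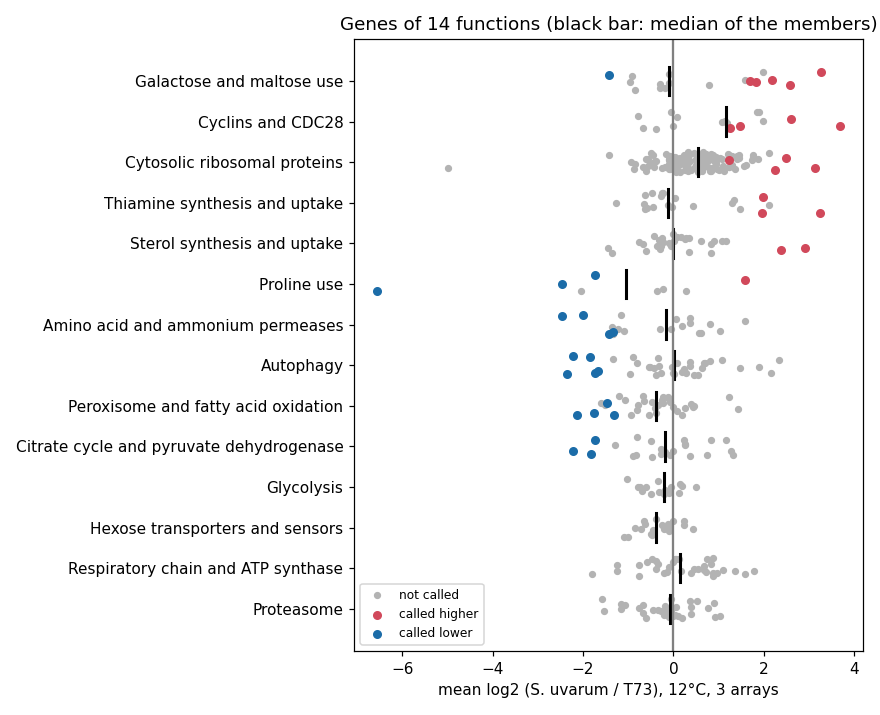
Mean log2 ratio of S. uvarum to T73 at 12°C over 3 arrays (x axis) of each gene in 14 function lists, with called genes coloured by direction and the median of each list as a black bar. Calls lie on the higher side in cyclins (25%), thiamine (14.3%) and sterol genes (6.45%), against 2.44% of all genes tested, and in ribosomal proteins (2.96%), near that share. They lie on the lower side in autophagy (13.9%), citrate cycle (13.0%) and peroxisome genes (12.1%), against 3.96%. Glycolysis, hexose transporters, respiratory chain and proteasome have none. The point at -6.55 in proline use is PUT7, which rests on 1 value.

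The ratios also differed by the chromosome of the gene, in each of the 3 strains. Genes of chromosome III had a median of 0.89 in S. uvarum at 12°C, at 0.87, 1.06 and 0.60 on arrays A, B and C, and their median was 0.49 in Fermol cryophile, 0.87 in S. kudriavzevii and 0.87 in S. uvarum at 28°C. Chromosomes I and II had medians of 0.38 and 0.36. Of the 735 genes on chromosomes I to III, 34 were called higher (4.63%) and 10 lower (1.36%), whereas of the other 5437, 116 were higher (2.13%) and 234 lower (4.30%). ORFs that matched no gene of the current annotation had a median of 0.43, against 0.01 for annotated ones. Centring each array within each chromosome arm left 377 calls, of which 309 were among the 394. Which part of the ratios follows the place of a spot on the array was not tested.

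**Figure D4:**
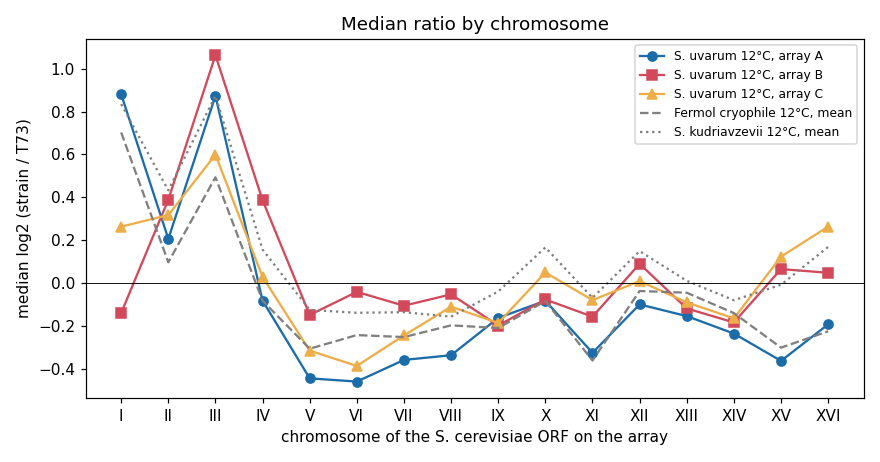
Median log2 ratio to T73 (y axis) of the genes of each chromosome (x axis) for arrays A, B and C of S. uvarum at 12°C, and for the means of Fermol cryophile and S. kudriavzevii at 12°C as grey lines. Chromosome III is raised in all 3 strains, to 1.06 on array B of S. uvarum, and chromosomes V to VIII are slightly below 0.

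The same strain was then compared between temperatures, a contrast that also holds the response of T73 with the opposite sign. limma called 176 of 6138 genes, 53 higher at 12°C than at 28°C (0.863%) and 123 lower (2%). Scaling the arrays gave 51 higher and 39 lower and quantile normalization 73 and 64, so that the majority of lower genes did not hold. The genes named here had to be called against T73 at 12°C as well, and the arrays at 12°C are common to both comparisons.

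SPS22 was at -1.66, -2.001 and -2.91 at 12°C, against 1.56, 0.85 and 1.85 at 28°C, with a difference of -3.61 (SE 0.46, adjusted p = 0.00501). ADH4 was at -1.51, -2.45 and -1.90 at 12°C, against 1.20, 0.77 and 2.99 at 28°C, with a difference of -3.60 (SE 0.74, adjusted p = 0.0253). For both genes all arrays at 12°C were below T73 and all arrays at 28°C above it. The lower genes HIS6 (-1.50 at 12°C, against 1.90 at 28°C), YIL165C (-1.74, against 1.59), and EFM2, a methyltransferase of elongation factors (-1.71, against 1.57), had the same crossing. On the higher side, ACP1 was at 3.46, 6.14 and 0.65 at 12°C, against -0.30, -1.82 and -2.35 at 28°C, with a difference of 4.91 (SE 1.03, adjusted p = 0.0279). PAI3, an inhibitor of the vacuolar proteinase A, was at 3.04, 3.22 and 1.08 at 12°C, against -0.61, -1.67 and -2.63 at 28°C, with a difference of 4.08 (SE 0.78, adjusted p = 0.0241). The ORFs YNR025C, YNL120C and YLR184W, which matched no annotated gene, were higher by 5.65 (SE 1.34, adjusted p = 0.0393), 4.41 (SE 0.98, adjusted p = 0.0328) and 3.67 (SE 0.81, adjusted p = 0.0336). In 9 of these 10 genes the 2 temperatures lay on opposite sides of T73 on every array, and YNL120C had 1 value of 0.09 at 28°C. The genes were chosen for large differences, so this is a description only. Of all 5721 genes with 3 values at both temperatures, 1327 (23.2%) did not overlap between them and 403 (7.04%) lay on opposite sides of T73 on every array. The contrast leaned on all 3 arrays at 12°C, and 1 gene stayed called without array A, 1 without array B and 22 without array C.

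**Figure D5:**
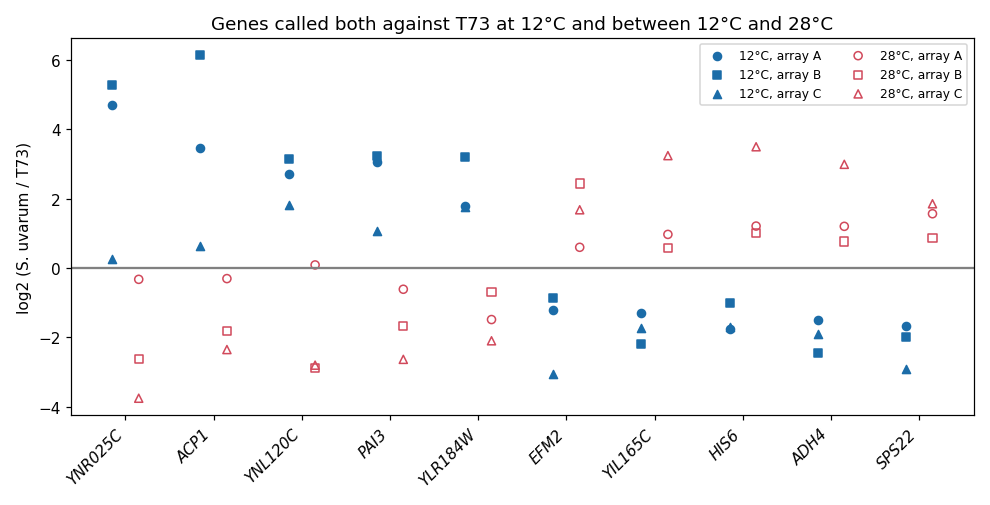
Log2 ratio of S. uvarum to T73 (y axis) on each array at 12°C (filled) and at 28°C (open), for the 5 genes of largest difference in each direction that were called both against T73 at 12°C and between the temperatures. ADH4 and SPS22, chosen like the others for a large difference, lie below 0 at 12°C and above 0 at 28°C on all arrays.

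Against S. kudriavzevii at 12°C, the other cold-tolerant species, limma called 0 of 6132 genes (0%), with a smallest adjusted p of 0.0795, while 449 genes had an unadjusted p below 0.05. With array weights 31 genes were called. GAL7 averaged 3.27 in S. uvarum, against -0.17 in S. kudriavzevii, a difference of 3.44 (SE 0.82, adjusted p = 0.481). This does not show that the 2 species had the same expression, since the SE of the difference was 0.82 for GAL7 alone.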

How the data were processed

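Cells were collected from fermentations of Tempranillo must, and their RNA was amplified, labelled with Cy3 (strain) or Cy5 (T73) and hybridised to arrays of PCR-amplified S288c ORFs. The authors deposited log2 ratios, made with GenePix and Acuity after background subtraction, normalization, removal of spots not found and a manual correction of print tips. The deposited log2 value was read as T73 over strain and the sign was turned. The dyes are in the labels, and the direction of the 20 aroma genes that the study's text describes in this group matched after turning. The methods name 2 independent fermentations and 3 experiments, so 2 arrays of a group may share a fermentation, and p-values measure the spread between arrays. No dye was swapped, and T73 counts as 1 control whose own spread is left out. The number of arrays limits the precision.

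Of 6178 ORFs, 6 genes with 2 lines were averaged, which left 6172 genes, and 492 ORFs matched no gene of the RefSeq table (assembly R64), used for names and gene order only. One model with a coefficient for each strain and temperature was fitted to all 18 arrays with limma 3.58.1 (R 4.3.3; lmFit, eBayes). Tests were two-sided, and p-values were adjusted by Benjamini-Hochberg over genes with at least 2 values. The fit was tested on simulated data. An exact sign permutation over 3 arrays cannot go below p = 0.25, so no such test was used. Genes were named by rule: the 12 highest and 12 lowest called genes with a symbol, 3 values of one sign and none below -10; the called genes of a list, or else its 2 largest; aroma genes with a direction in the study; and the 5 largest in each direction called in another contrast too. Other genes named, and the COS, Y′, HSP31 and cassette groups, were chosen after their values were seen. The group and all lists were chosen with earlier results of these data known. Alternatives were centring, scaling, quantile normalization, values below -10 as missing, array weights, fewer arrays, a block, 3 values required, a robust fit, leaving out each array and, chosen after seeing the data, centring within chromosome arms. Not every called gene of a list is reported here.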

Additional observations from a re-analysis of the deposited data

Results flagged for a closer look

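CUP1-2 differed between S. uvarum and Fermol cryophile at 12°C by -4.30 on the log2 scale, by a limma test of the difference itself. Between 12°C and 28°C in S. uvarum, the test of the difference gave YNR025C at 5.65, ACP1 at 4.91, YNL120C at 4.41, PAI3 at 4.08 and YLR184W at 3.67, all higher at 12°C. SPS22 at -3.61, ADH4 at -3.60, HIS6 at -3.40, YIL165C at -3.33 and EFM2 at -3.28 were lower at 12°C. The 10 genes named from the temperature contrast were also called between S. uvarum and T73 at 12°C. Of those calls against T73, 3 held without array A, 1 without array B and 4 without array C.

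The Arabidopsis control spot, which was not among the genes tested, averaged 1.58 on the S. uvarum arrays at 12°C, 2.36 in Fermol cryophile and 1.90 in S. kudriavzevii at 12°C, and -0.26 in S. uvarum at 28°C. Its part in the ratios was not tested.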

How the results depend on the processing

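Calls of S. uvarum against T73 at 12°C numbered 394, and 613 after scaling, 969 with array weights, 249 with only the 9 arrays at 12°C, 0 with only the 3 arrays of the group (1437 genes at an unadjusted p below 0.05, limma) and between 15 and 312 with 1 array left out. The 2-fold rule gave 1714 genes, 566 at 3-fold, and between 1655 and 1970 with 1 array left out. Against Fermol cryophile the 1 call became 297 with array weights, 0 with the 9 arrays at 12°C, and 0 to 8 with 1 array left out. Against S. kudriavzevii 0 calls became 31 with array weights. Against S. uvarum at 28°C, 176 calls became 90 after scaling, 987 with array weights, 78 with the replicate block, and 1 to 23 with 1 array left out. The function lists held 88 called genes, and 2 to 67 with 1 array left out. The 67, without array A, included genes that were not among the 88.

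The labels do not say whether the replicate letters stand for more than a numbering of the arrays. Residuals of arrays with the same letter at 12°C correlated between -0.06 and 0.31 (median 0.07). The replicate block gave 341 calls against T73, 292 of them among the 394. Of 128 called genes named by rule, 29 lost the call under the block, 55 with only the 9 arrays at 12°C and all 128 with only the 3 arrays of the group. The value farthest from 0 lay on array B in 222 of the 394 genes, on C in 145 and on A in 27, and the cause of the losses without array B or C was not tested. At a median SE of 0.49, the 3 arrays left most differences of 2-fold or less beyond reach. Of the 1714 genes that met the 2-fold rule, 387 were called.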
